A study of Rattus norvegicus with 12 samples.

Results

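Metallothionein, iron and zinc transport genes of the rat renal cortex were read from every probe set that the platform annotation gives to a single one of 10 genes. The genes were Mt1, Mt2A, Tfrc, Slc40a1, Slc11a2, Tf, Cp, Slc39a8, Slc39a14 and Slc30a1, and 16 probe sets of 9 genes were found among the 31042 probe sets other than controls. Tf, the plasma iron carrier transferrin, had no such probe set and is not analysed here. The 12 arrays came from kidney grafts of male rats, 1 array per graft, all carried by wild-type recipients. In 6 arrays the graft was ABCC2-/-, that is deficient in the export pump MRP2, and in 6 it was wild type. The sources used here give no strain, age or time after transplantation, and do not say whether each graft had its own donor, so p-values measure spread among these 12 arrays.

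Metallothioneins are small proteins rich in cysteine that bind zinc, copper and cadmium, and their genes are switched on by the zinc-sensing factor MTF1 through short metal response elements. In the proximal tubule, zinc and iron are taken back from the filtrate by importers and by receptors for carrier proteins, and surplus iron leaves the cell through ferroportin. Messages of several iron genes carry iron responsive elements, hairpins through which the iron regulatory proteins set their stability or translation.

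Signals are deposited intensities, linear and per probe set, and a level of a probe set cannot be set against that of another. Differences are on the log2 scale, deficient minus wild type, each with its standard error (SE) from a limma fit over the 18625 probe sets that passed a filter on low signal, and with p-values adjusted over all of them. Of the 16 member probe sets 14 passed this filter, representing 8 genes. The second probe set of Slc39a14 and the single probe set of Slc30a1 lay below it and are given as values. Abcc2, the gene of MRP2, had signals with a lowest value of 0.0387, a median of 0.150 and a highest value of 0.213 in deficient grafts, against 0.787, 0.887 and 0.987 in wild-type grafts, so the genotypes did not overlap (log2 difference -2.69, SE 0.22, adjusted p = 8.35e-06). Markers of the proximal tubule (8 of 8) and of the distal tubule and collecting duct (7 of 7) passed the filter, as did 4 of 5 glomerular markers. Of 8 hepatocyte genes 3 passed (Apoc3, Apob and Ttr), and Alb, Apoa1, Fgb, Ahsg and Serpina1 did not. Fewer cells of a type and less RNA per cell cannot be told apart in such tissue samples.

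The arrays fell into 2 sets by their place in the series, the first 3 and the last 3 listed of each genotype, and the sources used here do not say what separates them. With genotype in the fit 30.3% of all tested probe sets differed between the last-listed and the first-listed arrays at an adjusted p of 0.05. The ratio of the 3′ to the 5′ Gapdh control probe set, a measure of how complete the labelled transcripts are, was 1.28, 1.30 and 1.36 in the last-listed deficient arrays and lay between 1.64 and 1.93 in the other 9 arrays. Results are therefore also given within each set.

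The promoters of Mt1, Mt2A and Slc30a1, the members known as MTF1 targets, are shown because the pairing of these genes across arrays was tested. The windows are the 250 bases before the RefSeq start in build GRCr8, on the strand of the gene, at chr19:10832976-10833225 (minus strand) for Mt1, at chr19:10838709-10838958 (minus strand) for Mt2A and at chr13:106021769-106022018 (plus strand) for Slc30a1. Capitals mark the core of the metal response element, searched as TGCACNC or TGCGCNC on both strands, with overlapping matches counted.
Mt1: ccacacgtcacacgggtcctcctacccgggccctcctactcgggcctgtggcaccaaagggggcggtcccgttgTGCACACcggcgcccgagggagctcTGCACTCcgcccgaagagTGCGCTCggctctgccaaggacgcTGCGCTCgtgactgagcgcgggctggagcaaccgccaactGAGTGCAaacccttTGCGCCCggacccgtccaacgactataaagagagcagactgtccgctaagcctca
Mt2A: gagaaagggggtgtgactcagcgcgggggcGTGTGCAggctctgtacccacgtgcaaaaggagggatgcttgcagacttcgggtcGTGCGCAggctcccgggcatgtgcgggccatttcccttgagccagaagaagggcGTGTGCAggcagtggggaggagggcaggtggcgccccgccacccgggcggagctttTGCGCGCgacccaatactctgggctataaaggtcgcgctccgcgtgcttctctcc
Slc30a1: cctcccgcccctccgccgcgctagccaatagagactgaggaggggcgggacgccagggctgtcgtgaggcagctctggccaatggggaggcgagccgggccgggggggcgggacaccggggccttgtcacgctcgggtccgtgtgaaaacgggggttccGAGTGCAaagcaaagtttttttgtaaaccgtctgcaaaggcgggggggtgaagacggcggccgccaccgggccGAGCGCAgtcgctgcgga
Mt1 held 6 matches, Mt2A 4 and Slc30a1 2. Of 33469 RefSeq promoter windows of the same length 20.6% held at least 1 match, 4.90% at least 2, 0.266% at least 4 and 0.0269% at least 6. Tfrc held 3, and Slc40a1, Slc11a2, Cp and Slc39a8 held none in these windows; Slc39a14 had no window in the table. The antioxidant response element core TGACNNNGC, through which NRF2 acts, was found once each in Mt1, Mt2A, Slc30a1 and Slc39a8 and in 10.1% of all windows. A match is a stretch of letters and was not measured as a bound site.

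No metallothionein, iron or zinc transport probe set passed the test of deficient against wild-type grafts. Of the 14 tested 0 passed an adjusted p of 0.05 in limma, against 0.0215% of all tested probe sets, and 0 had an unadjusted p under 0.05, against 7.98% of all. With listing set as a block the count was also 0, against 0.601%. The lowest adjusted p was 0.628, and the lowest exact two-sided permutation p over the 16 probe sets was 0.149. The difference was positive in 5 and negative in 9 of the 14, with a median of -0.040 against -0.023 over all tested probe sets. In each of the 16 the genotypes overlapped, while 0.435% of all tested probe sets showed no overlap. The 95% interval of the fold, deficient over wild type, stayed within 1.5-fold in either direction for 10 of the 14, and over all 14 the intervals reached from 0.578 to 2.001.

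**Figure D1:**
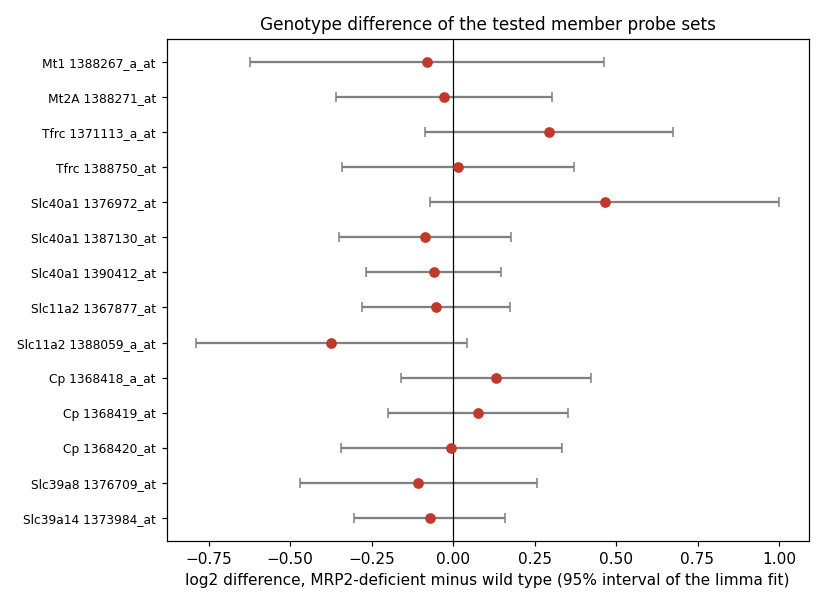
Log2 difference, deficient minus wild type, of the 14 tested member probe sets (points) with the 95% interval of the limma fit (bars, 6 arrays per genotype). Each interval holds 0, and the widest are those of Mt1 and Slc40a1 1376972_at.

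Mt2A, the metallothionein 2 gene, was measured by probe set 1388271_at. Its signal had a lowest value of 33.2, a median of 42.8 and a highest value of 52.9 in deficient grafts, against 33.3, 42.0 and 61.0 in wild-type grafts. The ranges overlapped, and wild-type replicate 4, at 61.0, was above every deficient array. The log2 difference was -0.028 (SE 0.16, adjusted p = 0.957), and the 95% interval of the fold ran from 0.780 to 1.23. The spread lay between the listing sets instead. Last-listed deficient grafts had 51.4, 49.3 and 52.9 and last-listed wild-type grafts 61.0, 47.4 and 45.4, whereas first-listed deficient grafts had 33.3, 36.3 and 33.2 and first-listed wild-type grafts 33.3, 38.6 and 35.8. Every last-listed array was above every first-listed array. Mt2A was 1.46-fold higher in the last-listed arrays (log2 difference 0.54, SE 0.07, adjusted p = 4.75e-05), and 11.3% of all tested probe sets passed in this direction. The deficient minus wild-type difference was -0.066 in the first-listed and 0.010 in the last-listed arrays. Over all arrays with the Gapdh ratio as a covariate it was -0.24 (SE 0.14), and with listing set as a block beside it -0.023 (SE 0.087).

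Mt1, the metallothionein 1 gene, was measured by probe set 1388267_a_at, whose pattern was another. Its signal had a lowest value of 0.227, a median of 0.433 and a highest value of 0.612 in deficient grafts, against 0.316, 0.368 and 0.651 in wild-type grafts. The log2 difference was -0.082 (SE 0.26, adjusted p = 0.917). In the first-listed arrays the deficient grafts had 0.265, 0.227 and 0.407, against 0.651, 0.587 and 0.389 in wild-type grafts, so 2 of 3 deficient values lay below all wild-type values. In the last-listed arrays the deficient grafts had 0.612, 0.572 and 0.460, against 0.348, 0.316 and 0.338 in wild-type grafts, and every deficient value was the higher. The log2 difference was -0.87 in the first-listed and 0.70 in the last-listed arrays, and neither passed within its set (adjusted p = 0.288 and 0.0528). The change of the difference between the sets, 1.57 (SE 0.34), passed in the interaction term of limma (adjusted p = 0.0211), as did that of 2.54% of all tested probe sets. With the Gapdh ratio as a covariate the difference over all arrays was -0.35 (SE 0.26), and with listing set as a block beside it -0.54 (SE 0.27).

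A probe set that the annotation gives to Mt1f, Ttr and Mt1 together (1371237_a_at) is not a member. Its signal had a lowest value of 50.0, a median of 61.4 and a highest value of 77.3 in deficient grafts, against 50.8, 60.3 and 87.7 in wild-type grafts. It followed Mt2A over the 12 arrays (Pearson r = 0.954 with genotype means removed) and not the Mt1 probe set (r = 0.265), and it was 1.36-fold higher in the last-listed arrays (adjusted p = 0.000433). Its deficient minus wild-type difference was -0.089 in the first-listed and 0.061 in the last-listed arrays. The change between the sets, 0.15 (SE 0.15), did not pass in the interaction term of limma (adjusted p = 0.629), unlike that of the Mt1 probe set. The gene table also lists a pseudogene, Mt1-ps1, and metallothionein sequences resemble each other, so the assignment of these probe sets to 1 gene is uncertain.

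The genes most like each metallothionein were ranked by Pearson r over the 12 arrays, genotype means removed. For Mt2A they were Csnk2a1, a protein kinase subunit (r = 0.977), the ribosomal protein genes Rpl5 (0.972) and Rpl23 (0.972), Cox7c, a subunit of cytochrome c oxidase (0.972), and Cisd1, an iron-sulfur protein of the outer mitochondrial membrane (0.970). Each of these 5 was higher in the last-listed arrays too, by 0.27 to 0.80 on the log2 scale, so the points share the listing set. For Mt1 they were Ntpcr (0.926), the scaffold gene Nherf1 (0.898), the connexin gene Gja1 (0.882), C17h7orf25 (0.878) and Pafah1b2 (0.873), with listing set differences between -0.029 and 0.19. The genotype difference of Mt1 itself turned between the sets, and a listing set difference does not measure such a turn. Whether these genes share that turn was not tested.

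Tfrc, the transferrin receptor that takes iron-loaded transferrin into cells, was measured by 2 probe sets. Probe set 1388750_at had a lowest signal of 3.68, a median of 5.21 and a highest of 6.96 in deficient grafts, against 3.38, 5.10 and 7.10 in wild-type grafts, and the log2 difference was 0.015 (SE 0.17, adjusted p = 0.979). Probe set 1371113_a_at had 0.475, 0.657 and 0.961 in deficient grafts, against 0.365, 0.586 and 0.663 in wild-type grafts, and the log2 difference was 0.29 (SE 0.18, adjusted p = 0.638). The ranges overlapped in both, and over the 12 arrays the 2 probe sets moved with r = 0.692, genotype means removed. In wild-type replicate 4 both Tfrc probe sets were at their lowest, 3.38 and 0.365. This was not particular to Tfrc. The same array was also the lowest of the 12 for every Cp probe set, at 1.51, 2.11 and 0.712. It had the lowest median log2 signal of the 12 arrays, -1.77, though it was the highest for Mt2A. The genes most like Tfrc (1388750_at) were Tpm3, a tropomyosin (r = 0.921), the clock gene Bmal1 (0.920), Creb3l1 (0.906), Rnf125 (0.896) and the nuclear receptor gene Ppard (0.885).

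Slc40a1 encodes ferroportin, the exporter of iron from cells, and its 3 probe sets did not behave alike. Slc40a1 1376972_at had signals of 3.20, 3.08 and 3.14 in the last-listed deficient grafts, against 1.52, 1.78 and 1.61 in the last-listed wild-type grafts. In the first-listed arrays it had 1.34, 1.05 and 1.51 in deficient grafts, against 1.37, 1.43 and 1.12 in wild-type grafts. The last-listed deficient arrays stood above the other 9, which lay between 1.05 and 1.78. Over all arrays the log2 difference was 0.47 (SE 0.25, adjusted p = 0.628). Within the last-listed arrays it was 0.95 (SE 0.10) and passed (adjusted p = 0.000253), where 6.39% of all tested probe sets passed, and within the first-listed arrays it was -0.013 (SE 0.15, adjusted p = 0.982). The change between the sets, 0.96 (SE 0.18), passed in the interaction term (adjusted p = 0.0121).

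The other probe sets of Slc40a1 did not show this. Slc40a1 1387130_at had 2.57, 2.07 and 1.96 in the last-listed deficient grafts, against 2.07, 2.66 and 2.12 in the last-listed wild-type grafts. Slc40a1 1390412_at had 4.37, 3.76 and 3.92 in the last-listed deficient grafts, against 4.17, 4.38 and 4.26 in the last-listed wild-type grafts. Over all 12 arrays their log2 differences were -0.087 (SE 0.12) and -0.060 (SE 0.10), with adjusted p of 0.804 and 0.829. They moved together with r = 0.692 and against 1376972_at with r = -0.388 and -0.214. The last-listed deficient arrays are those with the low Gapdh ratio. With that ratio as a covariate the log2 difference of Slc40a1 1376972_at was 0.0094 (SE 0.17), and with listing set as a block beside it 0.18 (SE 0.16). The low ratios and the high signals of this probe set fall on the same arrays, so these fits cannot tell them apart. Macrophages also make ferroportin, and the summed signal of the 9 macrophage markers with a probe set lay between 12.2 and 14.9 in the last-listed deficient arrays and between 9.47 and 12.8 in the other 9. C1qa, C1qb and C1qc had medians of 4.45, 1.23 and 2.24 in deficient grafts, where the sum had a median of 12.5. Of 7 tested macrophage markers 6 had a positive genotype difference and 0 passed, and Cd163 and Itgam were below the filter. Within the last-listed arrays the difference was positive for Cd68, Mrc1, C1qa, C1qb and C1qc. It was -0.069 for Adgre1 and -0.032 for Csf1r there. The part of macrophages in the result was not tested.

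**Figure D2:**
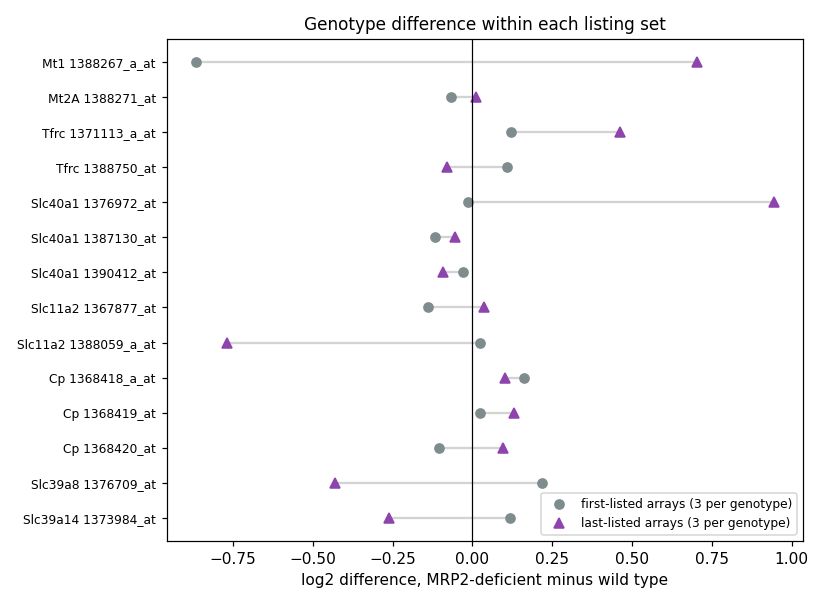
Log2 difference, deficient minus wild type, within the first-listed arrays (circles) and the last-listed arrays (triangles), 3 arrays per genotype each, for the 14 tested member probe sets. Mt1 lies at -0.87 and 0.70, and Slc40a1 1376972_at at -0.013 and 0.95, while Mt2A lies at -0.066 and 0.010.

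Slc11a2 encodes DMT1, which carries ferrous iron across the cell membrane and out of endosomes. Slc11a2 1367877_at had a lowest signal of 4.91, a median of 6.64 and a highest of 7.48 in deficient grafts, against 5.76, 6.73 and 7.80 in wild-type grafts, and the log2 difference was -0.052 (SE 0.11, adjusted p = 0.865). Slc11a2 1388059_a_at had 0.446, 0.354 and 0.296 in the last-listed deficient grafts, against 0.681, 0.611 and 0.557 in the last-listed wild-type grafts. In the first-listed arrays it had 0.680, 0.683 and 0.619 in deficient grafts, against 0.548, 0.732 and 0.681 in wild-type grafts. The last-listed deficient arrays were thus the lowest 3 of the 12. Over all arrays the log2 difference was -0.37 (SE 0.20, adjusted p = 0.628). Within the last-listed arrays it was -0.77 (SE 0.20, adjusted p = 0.0448), within the first-listed arrays 0.024 (SE 0.15), and the change between the sets did not pass (adjusted p = 0.1003). With the Gapdh ratio as a covariate the difference was -0.066 (SE 0.16), and with listing set as a block beside it -0.13 (SE 0.17). The low ratios and the low signals of this probe set fall on the same arrays, so these fits cannot tell them apart. The 2 probe sets did not follow each other (r = -0.058 over 12 arrays).

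Cp encodes ceruloplasmin, the copper-binding ferroxidase that oxidizes iron leaving the cell. Its 3 probe sets moved together across arrays, with r between 0.801 and 0.902, genotype means removed. Cp 1368419_at had a lowest signal of 2.41, a median of 3.14 and a highest of 3.54 in deficient grafts, against 2.11, 2.80 and 3.47 in wild-type grafts. The log2 difference of that probe set was 0.077 (SE 0.13, adjusted p = 0.838). For Cp 1368418_a_at it was 0.13 (SE 0.14) and for Cp 1368420_at -0.0051 (SE 0.16). The intervals of the fold for the 3 probe sets lay between 0.788 and 1.34, so the genotypes were not distinguishable for Cp at a spread of this size.

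Among zinc importers, Slc39a8 (ZIP8), which carries zinc, iron and manganese into cells, had a lowest signal of 4.12, a median of 5.505 and a highest of 9.77 in deficient grafts, against 5.60, 5.97 and 8.96 in wild-type grafts. A single array of each genotype was high, deficient replicate 9 and wild-type replicate 8. The log2 difference was -0.11 (SE 0.17, adjusted p = 0.827). Slc39a14 (ZIP14), an importer of zinc, manganese and iron not bound to transferrin, had in its tested probe set 1373984_at a lowest signal of 0.948, a median of 1.21 and a highest of 1.44 in deficient grafts, against 1.11, 1.21 and 1.47 in wild-type grafts. Its log2 difference was -0.072 (SE 0.11, adjusted p = 0.814). Its dim probe set 1382919_at ran from 0.035 to 0.244 in deficient grafts and from 0.035 to 0.208 in wild-type grafts, with 3 of 12 values raised to the minimum of 0.0694.

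Slc30a1 encodes ZnT1, the exporter of zinc from the cell. Its probe set was dim, with a lowest signal of 0.101, a median of 0.130 and a highest of 0.169 in deficient grafts, against 0.0694, 0.109 and 0.153 in wild-type grafts. The ranges overlapped, and an exact permutation test, two-sided, gave p = 0.201. Without the filter on low signal the log2 difference was 0.30 (SE 0.21, adjusted p = 0.737 over all probe sets other than controls). The difference was -0.0012 in the first-listed and 0.60 in the last-listed arrays.

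Pairs of members were compared over the arrays, genotype means removed, by the probe set of highest mean signal of each gene. All but Mt2A with Slc39a14 were chosen for a known shared regulator. None of the 5 pairs passed. Because Mt2A fell into 2 clusters by listing set, its pairs are given within the sets of 6 arrays, where Mt1 with Mt2A had r = -0.40 and rho = -0.54 in the first-listed and r = 0.057 and rho = 0.086 in the last-listed arrays (exact permutation p = 0.472 and 0.361, then 0.861 and 0.917). Mt2A with Slc30a1 had r = 0.55 and rho = 0.43 in the first-listed and r = -0.30 and rho = -0.14 in the last-listed arrays (exact p = 0.389 and 0.639, then 0.750 and 0.917). Mt2A with Slc39a14 had r = -0.050 and rho = -0.086 in the first-listed and r = -0.77 and rho = -0.71 in the last-listed arrays (exact p = 0.889 and 0.944, then 0.139 and 0.278). Adjusted over the 10 within-set values, each of these p was at least 0.873. Within a set the exact test had 36 permutations and a smallest p of 0.0278, so a single pair could not have passed this adjustment. Over all 12 arrays Mt1 with Slc30a1 had r = 0.33 and rho = 0.31 (permutation p = 0.290 and 0.330). The r of this pair was 0.44 without the 2 arrays farthest from the median, 0.31 in the first-listed and -0.61 in the last-listed arrays (exact permutation p = 0.583 and 0.250). Tfrc with Slc11a2, whose messages can carry iron responsive elements, had r = -0.21 and rho = -0.17 (permutation p = 0.522 and 0.603). The r of that pair was -0.32 without the 2 farthest arrays, -0.69 in the first-listed and 0.52 in the last-listed arrays (exact permutation p = 0.528 and 0.611). Adjusted over the 5 pairs, both had p = 0.653 for r and 0.754 for rho.

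Of 32 other genes of iron handling 23 were tested and 0 passed between the genotypes, against 0.0215% of all tested probe sets. At an unadjusted p under 0.05 there were 2, Hmox1 and Flvcr1, or 8.70%, near the 7.98% of all tested probe sets. The log2 difference was above 0 in 11 and below 0 in 12 of them. Its median was -0.026, against -0.023 over all tested probe sets. The summed signal of the 27 genes with a probe set lay between 83.2 and 107 in deficient grafts and between 95.5 and 111.5 in wild-type grafts, and the last-listed deficient arrays, at 83.2 to 91.6, were the lowest. Hmox1, the inducible heme oxygenase that frees iron from heme, had the lowest p of these genes, followed by Flvcr1. It had a lowest signal of 0.430, a median of 0.787 and a highest of 0.961 in deficient grafts, against 0.286, 0.356 and 0.592 in wild-type grafts, with a log2 difference of 0.97 (SE 0.21, adjusted p = 0.465) and an exact permutation p of 0.00433. Its differences were 1.19 in the first-listed and 0.75 in the last-listed arrays. Flvcr1, a heme exporter, had a lowest signal of 0.222, a median of 0.375 and a highest of 0.507 in deficient grafts, against 0.394, 0.534 and 0.652 in wild-type grafts, and its log2 difference was -0.62 (SE 0.19, adjusted p = 0.606). The Flvcr1 difference was -0.66 in the first-listed and -0.58 in the last-listed arrays.

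Other zinc transporters and zinc-responsive genes held 17 tested of 24 listed, with a positive difference in 4 and a negative one in 13. The median difference was -0.10. Of the 17 tested, 0 passed the threshold, against 0.0215% of all tested probe sets. At an unadjusted p under 0.05 there were also 0, against 7.98% of all. Mtf1, the factor that senses zinc and drives metallothionein genes, had a lowest signal of 1.85, a median of 2.24 and a highest of 3.17 in deficient grafts, against 2.10, 2.95 and 3.54 in wild-type grafts (log2 difference -0.29, SE 0.15, adjusted p = 0.628). Slc30a5, a transporter that loads zinc into the secretory pathway, had 1.37, 1.87 and 2.01 in deficient grafts, against 1.93, 1.98 and 2.30 in wild-type grafts (log2 difference -0.19, SE 0.10, adjusted p = 0.628). Mt4, a metallothionein of stratified epithelia, was below the filter. The summed signal of the 21 genes of this list with a probe set lay between 25.8 and 29.9 in deficient grafts and between 28.7 and 32.5 in wild-type grafts. The ranges overlapped, and the last-listed deficient arrays, at 25.8 to 27.7, were the lowest.

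Copper handling genes, 10 tested of 11 listed, had 5 positive and 5 negative differences, a median of -0.012 and 0 past the threshold, against 0.0215% of all tested probe sets. At an unadjusted p under 0.05 there were 2 of the 10, Ccs and Atp7a, where 7.98% of all tested probe sets had such a p. Ccs, the copper chaperone of superoxide dismutase, had a lowest signal of 5.88, a median of 6.61 and a highest of 7.51 in deficient grafts, against 5.16, 5.72 and 6.55 in wild-type grafts (log2 difference 0.22, SE 0.09, adjusted p = 0.612). Atp7a, a copper-exporting ATPase, had 1.85, 2.17 and 2.42 in deficient grafts, against 2.08, 2.45 and 2.91 in wild-type grafts (log2 difference -0.24, SE 0.10, adjusted p = 0.614). The summed signal of the 10 genes lay between 96.2 and 124.9 in deficient grafts and between 91.9 and 121.1 in wild-type grafts. In the last-listed deficient arrays it was 116.3 to 124.9. Sod1 alone had a median signal of 66.6 in deficient grafts, where the sum had a median of 108. Sod1 was higher in the last-listed arrays by 0.39 on the log2 scale (SE 0.05, adjusted p = 4.32e-05). The sum thus mostly follows Sod1 and does not show how the list behaved as a group.

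**Figure D3:**
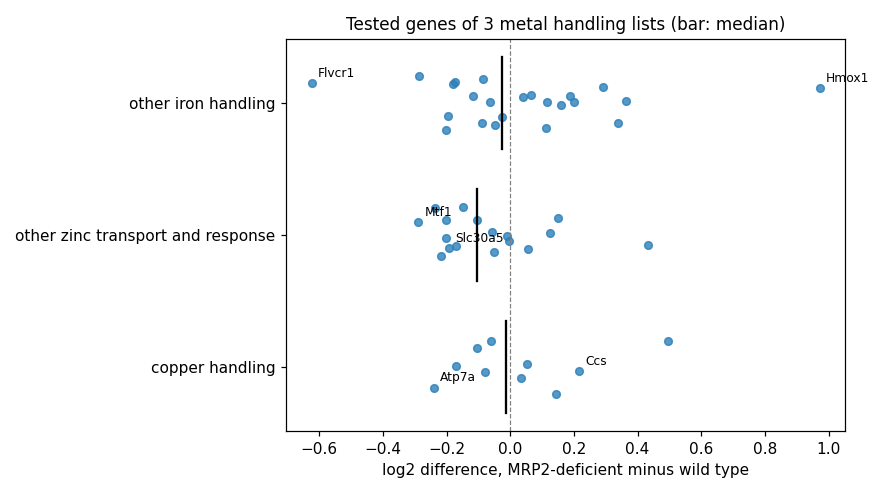
Log2 difference, deficient minus wild type, of the tested genes of 3 metal handling lists (points, 1 probe set per gene, spread up and down for display) with the median of each list (bar). Hmox1 at 0.97 and Flvcr1 at -0.62 lie farthest out, and the medians are -0.026, -0.10 and -0.012.

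Differences between the listing sets were counted at an adjusted p of 0.05. Of the 14 tested member probe sets, Mt2A and Slc40a1 1376972_at were higher in the last-listed than in the first-listed arrays. Slc11a2 1388059_a_at was lower. This count of 3 of 14 was a smaller share than the 30.3% of all tested probe sets. Slc40a1 1376972_at was 1.75-fold higher, and for Slc11a2 1388059_a_at the last-listed minus first-listed difference was -0.48 (SE 0.16, adjusted p = 0.0300). For Slc40a1 1376972_at the last-listed wild-type arrays, at 1.52 to 1.78, also lay above all first-listed arrays, at 1.05 to 1.51. For Slc11a2 1388059_a_at the wild-type arrays overlapped, at 0.557 to 0.681 in the last-listed and 0.548 to 0.732 in the first-listed set. Its deficient arrays did not, at 0.296 to 0.446 in the last-listed and 0.619 to 0.683 in the first-listed set. Of the 23 tested other iron handling genes 0 were higher and 7 lower. Of the 17 tested genes of the zinc list 2 were higher and 7 lower. Of the 10 of the copper list 4 were higher and 2 lower. Among all tested probe sets 11.3% were higher and 19.0% lower. The 2 higher genes of the zinc list were Mtf1 (log2 difference 0.43, SE 0.09, adjusted p = 0.00289) and Mt3 (0.89, SE 0.31, adjusted p = 0.0361). Mt3, a further metallothionein gene, was dim. Its genotype difference was -0.70 in the first-listed and 0.59 in the last-listed arrays. That change did not pass in the interaction term of limma (adjusted p = 0.208).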

How the data were processed

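Total RNA of renal cortex was labelled with biotin and hybridised to Affymetrix 3′ expression arrays, per the labels' protocols. Each deposited value is the intensity of a probe set, not on a log scale, and MAS5 and GCOS are named, without versions, in the submitters' processing notes. Low values were set to 0.01 before deposit (3.56% of all values), and no detection calls were used here. The number of arrays limits the precision.

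From the deposited intensity values 57 control probe sets were left out, values under the pooled 20th percentile (0.0694) were raised to it, so that differences of dim probe sets are understated, and log2 was taken. Probe sets whose mean log2 value reached the 40th percentile of such means (-2.53) were kept, and these 18625 were tested with limma 3.58.1 in R 4.3.3 (lmFit, eBayes with a mean-variance trend), genotype being the sole factor, with Benjamini-Hochberg adjustment. Single probe sets were compared by exact permutation over 924 assignments (smallest p 0.00216). Listing sets were compared with genotype in the fit, after the data had been seen. Alternatives changed the floor, filter, normalization, variance model, weights, covariates and arrays. Symbols are those of the platform annotation, with 20764 updated through Entrez numbers, and the promoter sequences are RefSeq's (GRCr8), a build not tied to the array.

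Members and lists were chosen with earlier results of these data known. All members were named, with Abcc2, the 2 genes of lowest p of each metal list and the 5 genes most like Mt1, Mt2A and Tfrc. The probe set shared by Mt1f, Ttr and Mt1, and Mt3, Mt4, Sod1 and the macrophage markers named singly, were named after their values were seen. Probe sets shared by Srprb and Tf were not used for Tf.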

Additional observations from a re-analysis of the deposited data

Results flagged for a closer look

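The genotype difference of Mt1 1388267_a_at changed by 1.57 on the log2 scale between the first-listed and the last-listed arrays, by the interaction term of limma (adjusted p = 0.0211). For the probe set shared by Mt1f, Ttr and Mt1 the change in the same term was 0.15 (adjusted p = 0.629). The genotype difference of Slc40a1 1376972_at changed by 0.96 (adjusted p = 0.0121). The last-listed deficient arrays were those with the low Gapdh ratios. With that ratio as a covariate the genotype difference was -0.35 for Mt1, against -0.082 without it. For Slc40a1 1376972_at it was 0.0094, against 0.47 without it. With listing set as a block beside the ratio the difference was -0.54 for Mt1 and 0.18 for Slc40a1 1376972_at. The low ratios fall on the last-listed deficient arrays alone, so these fits cannot tell the ratio from that group of arrays. The change between the sets was not fitted with the ratio.

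Single arrays stood apart in 2 of the 32 groups of 6 arrays examined, and chance alone sets about 1 in 20 groups apart. Wild-type replicate 4 was low for Tfrc 1371113_a_at, at 0.365 against 0.563 to 0.663 in the other wild-type arrays, a gap of 0.725 of the range on the log2 scale. That array was also the lowest for every Cp probe set. Wild-type replicate 8 was high for Slc39a8 1376709_at, at 8.96 against 5.60 to 6.08 in the other wild-type arrays, a gap of 0.826 of the range on the log2 scale. Both exceed the critical share of 0.625.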

How the results depend on the processing

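The count of 0 member probe sets past the threshold held under each alternative run other than the last-listed arrays alone, where 2 passed (Slc40a1 1376972_at at 0.95 and Slc11a2 1388059_a_at at -0.77). Over all probe sets the count was 4, and 112 passed with listing set as a block and 1190 in the last-listed arrays alone; with 1 array left out it lay between 3 and 5 and the member count stayed at 0. Signs turned, with no call after the turn, as follows. In the last-listed arrays alone the log2 difference was 0.70 for Mt1, 0.010 for Mt2A, -0.079 for Tfrc 1388750_at, 0.037 for Slc11a2 1367877_at and 0.096 for Cp 1368420_at. In the first-listed arrays alone it was -0.013 for Slc40a1 1376972_at, 0.024 for Slc11a2 1388059_a_at, 0.22 for Slc39a8, 0.12 for Slc39a14 1373984_at and -0.0012 for Slc30a1. With median centring Tfrc 1388750_at was at -0.041, and with quantile normalization Cp 1368420_at at 0.022. With the Gapdh ratio as a covariate Cp 1368420_at was at 0.021 and Slc40a1 1390412_at at 0.022, and with listing set as a block beside it, an alternative chosen after seeing the data, Slc40a1 1390412_at was at 0.0037 and Slc39a14 1373984_at at 0.00099. The cause of these turns was not tested. With 1 array left out the sign turned within -0.21 to 0.080 for Mt1, -0.099 to 0.075 for Mt2A, -0.097 to 0.12 for Tfrc 1388750_at, -0.095 to 0.027 for Slc11a2 1367877_at, -0.0089 to 0.14 for Cp 1368419_at and -0.11 to 0.082 for Cp 1368420_at. Of 398 member values under alternatives 359 kept direction and side of the threshold. Pair correlations turned within a listing set for Mt1 with Mt2A (-0.40), Mt1 with Slc30a1 (-0.61), Mt2A with Slc30a1 (0.55) and Tfrc with Slc11a2 (0.52), and without the 2 farthest arrays for Mt2A with Slc39a14 (0.026). No paired analysis was possible because the genotypes share 1 replicate number, 9. Values near the minimum limit what Slc30a1 and the dim Slc39a14 probe set can show.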
